A study of Mus musculus with 14 samples.

Results

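The genes described here are those of intestinal bile acid handling: the enterokine gene Fgf15, the transport genes Fabp6, Slc10a2, Slc51a, Slc51b, Abcc2 and Abcc3, the receptor gene Gpbar1 and the sterol hydroxylase gene Cyp27a1. They were taken by name as a list of 9, selected on their log2 levels on the arrays and their difference between the genotypes, with every probe set that the array annotation assigns to a single gene symbol. Of the 9 genes, 8 had such a probe set, among 22180 genes named in this way. The 8 had 9 probe sets, since Fgf15 had a pair of them. The probe set of Slc51b carries a second symbol, Rasl12, so Slc51b was not analysed here.

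Jejunal RNA of 14 mice was measured on Affymetrix whole-transcript arrays, 1 array per mouse, in 7 mice with LRH-1 K289R and 7 mice with wild-type LRH-1 (WT). All were 19 to 21 weeks old, ate ad libitum and were killed at 7 am, and the labels give no sex, strain, litter or batch. LRH-1 is the nuclear receptor encoded by Nr5a2, and K289R puts an arginine in place of a lysine that can carry the modifier SUMO. Each sample was a piece of whole jejunum, so fewer cells of a type and less RNA per cell cannot be told apart.

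Bile acids made from cholesterol in the liver are released into the gut lumen and taken back up near the end of the small intestine. There Slc10a2 encodes the apical uptake carrier, Fabp6 the cytosolic carrier protein, and Slc51a and Slc51b the subunits of the basolateral exporter. Inside the enterocyte bile acids bind the nuclear receptor FXR, encoded by Nr1h4, which raises Fgf15, and the secreted FGF15 acts on the liver to hold back bile acid synthesis. In mouse, the transcription factor GATA4 keeps such ileal genes low in the jejunum.

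The promoters of 3 transport genes are shown because their levels, given further on, were highest on the same arrays. They cover 250 bases before and 50 bases from the start site on, 5′ to 3′ on the gene's strand, and come from RefSeq on build GRCm38.p6. Of the 9 genes, 7 had an entry, all but Fgf15 and Abcc3. Capitals mark matches, on either strand, to an LRH-1 element (CAAGGNCA) or to a loose form of the inverted repeat bound by FXR (AGGTNA, any 1 base, TNACCT), and no match overlapped another.
Fabp6, chr11:43601513-43601812, minus strand: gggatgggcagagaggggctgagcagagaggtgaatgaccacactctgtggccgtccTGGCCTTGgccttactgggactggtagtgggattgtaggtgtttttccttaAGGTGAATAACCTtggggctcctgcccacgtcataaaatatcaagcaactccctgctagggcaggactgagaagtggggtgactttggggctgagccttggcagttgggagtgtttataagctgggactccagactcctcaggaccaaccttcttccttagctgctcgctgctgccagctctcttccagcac
Slc10a2, chr8:5105238-5105537, minus strand: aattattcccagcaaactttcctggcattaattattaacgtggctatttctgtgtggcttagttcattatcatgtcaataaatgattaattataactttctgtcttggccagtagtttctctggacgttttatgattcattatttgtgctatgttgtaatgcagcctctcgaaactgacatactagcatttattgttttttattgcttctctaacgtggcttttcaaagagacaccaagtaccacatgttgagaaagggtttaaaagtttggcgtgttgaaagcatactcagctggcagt
Slc51a, chr16:32487830-32488129, minus strand: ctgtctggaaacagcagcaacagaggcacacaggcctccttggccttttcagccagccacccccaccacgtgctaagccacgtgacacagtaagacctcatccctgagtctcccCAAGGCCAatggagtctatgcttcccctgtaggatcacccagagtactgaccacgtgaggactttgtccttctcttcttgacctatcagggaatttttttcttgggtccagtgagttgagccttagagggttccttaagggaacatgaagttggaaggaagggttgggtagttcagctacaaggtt
Fabp6 held 1 match to the loose FXR repeat, whose first base lies at −142 from the start site, and 1 to the LRH-1 element at −193 on the opposite strand. Slc51a held 1 LRH-1 match at −136. The Slc10a2 window held none of these letters, and neither did those of Slc51b, Abcc2, Gpbar1 and Cyp27a1. Of 32851 promoter windows of this length, 6.71% held the LRH-1 element and 0.0213% the loose FXR repeat. The exact FXR repeat (AGGTCA, any 1 base, TGACCT) was in 0.00913% of windows and in none of the 7. The letters AGATAA, 1 form of the GATA element, were in 11.2% of windows and in none of the 7. Other forms of the GATA element were not searched for, so their presence in these windows is not described. The loose form was written after the Fabp6 sequence had been read, so its match there is a description of that sequence.

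Levels are log2 intensities, and differences are K289R minus WT on that scale. The 9 genes were listed with this contrast and these levels known, so their differences are given with a standard error (SE) and a 95% interval, as a description and with no test. Median intensities per array ran from 168 to 174, and arrays correlated with r from 0.984 to 0.993. The 25th percentile of all probe sets, a log2 level of 6.25, served as the limit for dim genes, and all 8 genes had a mean above it. The arrays give no detection calls. The number of arrays limits the precision.

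Fgf15, the ligand of the group, was higher in K289R jejunum. On its brighter probe set the 7 K289R arrays ran from 7.62 through a median of 9.58 to 10.56, against 7.19, 7.36 and 8.63 in WT. The means were 9.43 ± 1.09 (SD, n = 7) in K289R and 7.79 ± 0.65 (SD, n = 7) in WT. The difference was 1.64 (SE 0.405, 95% interval 0.79 to 2.50), a fold of 3.12. Of the K289R arrays, 5 lay above the highest WT array, namely replicates 1, 2, 4, 6 and 7, while replicates 5 (8.38) and 3 (7.62) lay within the WT range. The WT arrays themselves fell into low and middling values, with replicates 1, 2, 3 and 4 between 7.19 and 7.36 and replicates 5, 6 and 7 between 8.35 and 8.63.

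The other Fgf15 probe set showed a much smaller difference. It ran from 7.00 through 7.18 to 7.68 in K289R, against 6.84, 7.15 and 7.32 in WT, a difference of 0.12 (SE 0.103, 95% interval −0.10 to 0.34, from a fit over all probe sets with 1 symbol). Its highest arrays were K289R replicates 7 (7.68) and 2 (7.52), which were also the highest on the brighter probe set. WT replicate 2 was the lowest on both. Other arrays were ordered differently. WT replicate 3 came next to the top here (7.32) but was at 7.25 on the brighter probe set. K289R replicate 6 was the lowest K289R array here (7.00) but was at 9.90 on the brighter one. With the mean of the pair of probe sets as the gene's level, the Fgf15 difference was 0.88 (SE 0.234). Why the pair differ in size was not tested.

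**Figure D1:**
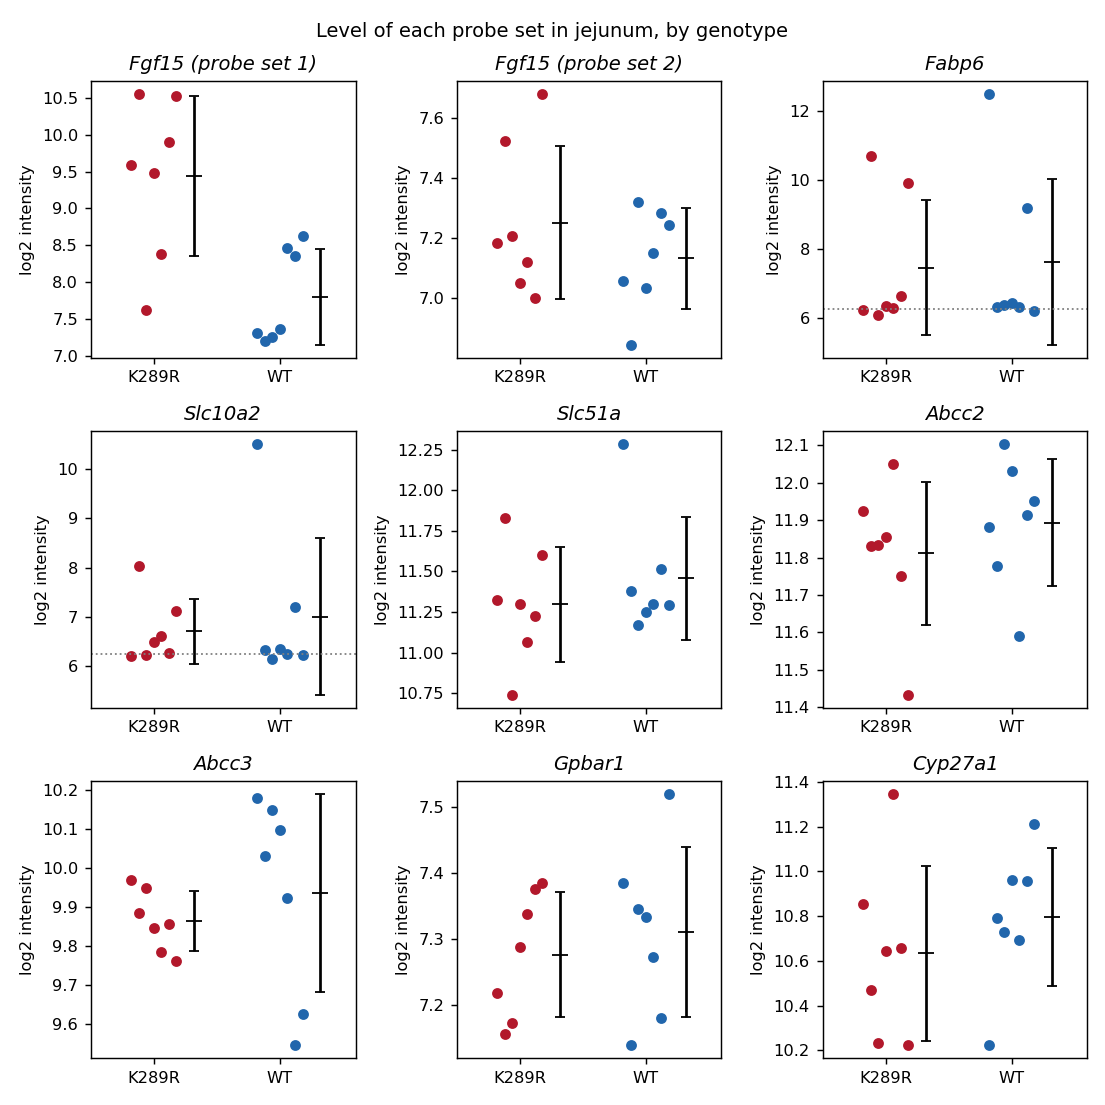
Log2 intensity of each probe set (y axis, a scale of its own in each panel) on the 7 K289R (red) and 7 WT (blue) arrays, ordered by replicate number within a genotype; black marks show the mean and SD, and the dotted line in the Fabp6 and Slc10a2 panels is the limit for dim genes at 6.25. Fgf15 on its brighter probe set has 5 K289R arrays above every WT array, while Fabp6 and Slc10a2 are high on a few arrays of both genotypes.

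Fabp6, whose protein carries bile acids through the cytosol of ileal enterocytes, was near the limit for dim genes on most arrays and high on 4. It ran from 6.09 through a median of 6.35 to 10.71 in K289R, against 6.20, 6.36 and 12.52 in WT. The high arrays were K289R replicates 2 (10.71) and 7 (9.91) and WT replicates 1 (12.52) and 6 (9.18), and the other 10 lay between 6.09 and 6.63. Both genotypes thus had 2 high arrays. The span over all arrays was 86.3-fold, and the pooled SD within genotypes, 2.20, was the highest of the 18010 genes tested. The genotype difference of −0.16 (SE 0.994, 95% interval −2.26 to 1.94) was far smaller than this spread, and without WT replicate 1 it was 0.66 (SE 0.766).

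Slc10a2, the gene of the apical carrier, was high on the same 4 arrays. It ran from 6.20 through 6.48 to 8.03 in K289R, against 6.14, 6.32 and 10.52 in WT. Its highest values were 10.52 on WT replicate 1, 8.03 on K289R replicate 2, 7.20 on WT replicate 6 and 7.12 on K289R replicate 7, and the others were at 6.60 or below. Single arrays were under the limit of 6.25 in 5 cases for Slc10a2 and in 3 for Fabp6. The difference for Slc10a2 was −0.30 (SE 0.552, 95% interval −1.46 to 0.87), and it was 0.29 without WT replicate 1.

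Slc51a, the gene of the alpha subunit of the basolateral exporter, had the same 4 arrays at the top over a much narrower span. It ran from 10.74 through 11.30 to 11.83 in K289R, against 11.17, 11.30 and 12.29 in WT. The order was that of Fabp6, with WT replicate 1 (12.29), K289R replicate 2 (11.83), K289R replicate 7 (11.60) and WT replicate 6 (11.51). The lowest array for both genes was K289R replicate 3, at 10.74 for Slc51a and 6.09 for Fabp6. Slc51a differed by −0.16 between the genotypes (SE 0.169, 95% interval −0.52 to 0.20), and by −0.021 without WT replicate 1.

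Fgf15 did not follow these arrays throughout. K289R replicates 2 and 7, high for Fabp6, had the highest Fgf15 levels, 10.56 and 10.52. WT replicate 1, the highest array for Fabp6, Slc10a2 and Slc51a, had an Fgf15 level of 7.31, the third lowest of all 14. WT replicate 6 was at 8.35. K289R replicates 1, 4 and 6 had Fgf15 levels of 9.58, 9.47 and 9.90 with Fabp6 at 6.23, 6.35 and 6.63. Without the 4 arrays high for Fabp6, the Fgf15 difference was 1.22 (SE 0.421), from 5 arrays per genotype.

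Some markers of position along the gut were high on the same arrays as Fabp6. Of 5 genes listed for the distal small intestine, the hormone genes Pyy and Gcg had the same 4 arrays at the top. Pyy was at 9.11 and 8.64 on K289R replicates 2 and 7 and at 9.26 and 8.58 on WT replicates 1 and 6, and it was lowest on K289R replicate 3, at 7.52. Of the top 4 arrays for Nts, Cubn and Amn, 2, 2 and 3 were among them, Nts encoding neurotensin and the other pair the intestinal vitamin B12 receptor complex. All 5 genes had their highest array among the 4 high for Fabp6, and 0 had their lowest there. The mean of the 5 markers ran from 9.68 to 10.54 in K289R and from 9.79 to 10.55 in WT. It was highest on WT replicate 1 (10.55), K289R replicate 2 (10.54) and WT replicate 6 (10.33), all high for Fabp6. It did not order all arrays as Fabp6 did, being 10.26 on K289R replicate 7, high for Fabp6, and 10.27 on WT replicate 7, low for it. With this mean as a covariate, the Fgf15 difference was 1.58 (SE 0.327).

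Genes listed for the proximal small intestine were mixed on these arrays. Of the 9, 5 had their lowest array among the 4 high for Fabp6. Gip, Cck, Fabp1 and Apoa4 were all lowest on WT replicate 1. Their next lowest arrays were K289R replicate 7 for Gip and Fabp1, K289R replicate 2 for Apoa4 and WT replicate 6 for Cck. Slc11a2 was lowest on K289R replicate 7 (9.40), but on WT replicate 1 it was at 9.80, near its highest value of 9.91. Another 2 genes, Sct and Slc40a1, had their highest array among the 4 high for Fabp6. Slc40a1, the iron exporter gene, was at 8.23 on K289R replicate 2 and at 8.31 on WT replicate 1, its highest arrays. Gata4 was lowest on K289R replicates 7 (9.65) and 2 (9.77) and WT replicate 1 (9.78), followed by K289R replicate 6 (9.86) and WT replicate 6 (9.87). Fabp1, the fatty acid binding protein gene of the proximal gut and liver, was lowest on WT replicate 1 (11.36), K289R replicate 7 (11.63) and K289R replicate 2 (11.80). Between the genotypes Gata4 differed by −0.13 (SE 0.109, limma adjusted p = 0.744) and Fabp1 by −0.17 (SE 0.246, adjusted p = 0.858). Between the genotypes, 3 of the 9 proximal genes were higher and 6 lower in K289R, with a median of −0.016. Of the 9, 0 were called at a limma adjusted p under 0.05, beside 0.0444% of all genes tested. The 1 tested colon marker of 3 was lower and not called. The part of position along the gut in the levels of Fabp6, Slc10a2 and Slc51a was not tested.

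**Figure D2:**
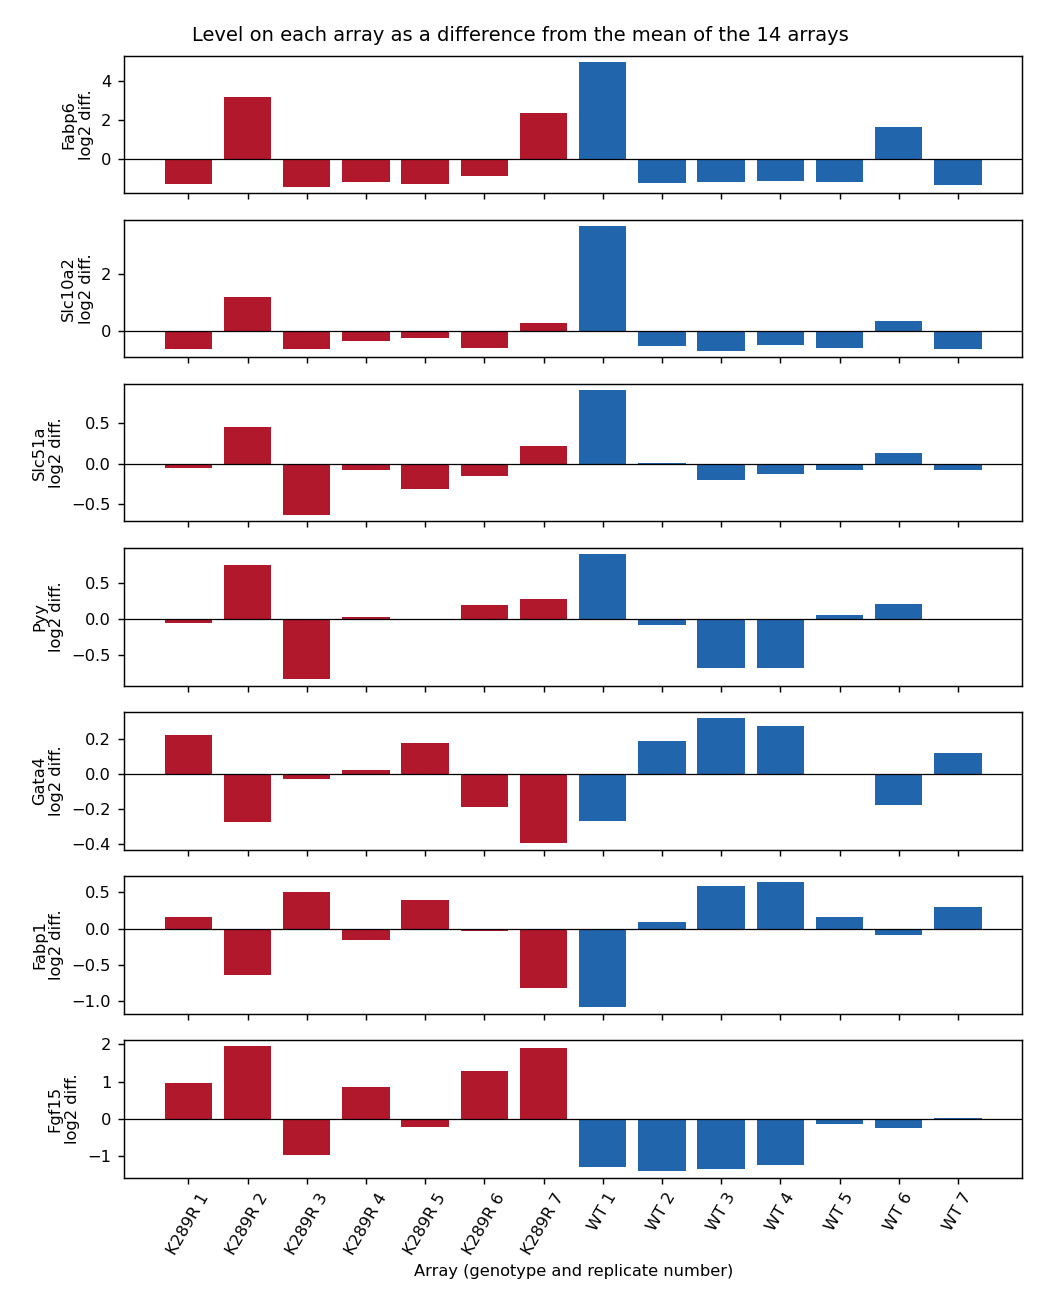
Level of 7 genes on each array (K289R red, WT blue; x axis, genotype and replicate number) as the log2 difference from that gene's mean over 14 arrays, with a y scale of its own per gene. Fabp6, Slc10a2, Slc51a and Pyy are highest on K289R replicates 2 and 7 and WT replicates 1 and 6, Gata4 and Fabp1 are lowest on K289R replicates 2 and 7 and WT replicate 1 among others, and Fgf15 is low on WT replicate 1.

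The apical and basolateral pumps spanned less than Fabp6, Slc10a2 and Slc51a, at 1.59-fold for Abcc2 and 1.55-fold for Abcc3 over all arrays. Abcc2, the gene of the apical MRP2 pump that also exports drug conjugates, ran from 11.43 through 11.83 to 12.05 in K289R, against 11.59, 11.91 and 12.10 in WT, a difference of −0.081 (SE 0.089, 95% interval −0.27 to 0.11). The genotypes overlapped over most of their ranges, and K289R replicate 7, high for Fabp6 and Fgf15, was the lowest array. Abcc3, the gene of the basolateral MRP3 pump, ran from 9.76 through 9.86 to 9.97 in K289R, against 9.55, 10.03 and 10.18 in WT. The K289R arrays lay wholly inside the WT range, with SDs of 0.078 in K289R and 0.25 in WT (n = 7 each). The difference was −0.071 (SE 0.092, 95% interval −0.26 to 0.12).

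Gpbar1, the gene of the cell surface bile acid receptor TGR5, had the narrowest span of the 8 genes, 1.30-fold over all arrays. It ran from 7.16 through 7.29 to 7.39 in K289R, against 7.14, 7.33 and 7.52 in WT, a difference of −0.034 (SE 0.062, 95% interval −0.16 to 0.10). Cyp27a1 encodes the mitochondrial sterol hydroxylase that opens the alternative route of bile acid synthesis. It ran from 10.23 through 10.65 to 11.35 in K289R, against 10.22, 10.79 and 11.21 in WT, and differed by −0.16 (SE 0.162, 95% interval −0.50 to 0.18). Its lowest arrays were WT replicate 1 (10.22), K289R replicate 7 (10.23), K289R replicate 3 (10.24) and K289R replicate 2 (10.47), whereas WT replicate 6 was among the 4 highest, at 10.96.

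Set side by side, 1 of the 8 genes was higher in K289R, which was Fgf15, and 7 were lower, with a median difference of −0.12 beside −0.0039 over all genes tested. In the limma fit over 18010 genes, 8 genes, or 0.0444%, had a Benjamini-Hochberg adjusted p under 0.05, and 0 of the 8 bile acid genes were among them. Of those called, 3 (0.0167%) were higher and 5 (0.0278%) lower in K289R. For 30 of the genes tested (0.167%) every array of one genotype lay above every array of the other, with none of the 8 among them. As the genes were listed with this contrast known, nothing is read from these counts. The pooled SDs of Fgf15 (0.90), Fabp6 (2.20), Slc10a2 (1.22), Slc51a (0.37) and Cyp27a1 (0.35) were all in the upper 5% of genes tested, at percentiles from 98.3 to 100, whereas Abcc3, Abcc2 and Gpbar1 were at percentiles 83.9, 81.8 and 37.2.

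**Figure D3:**
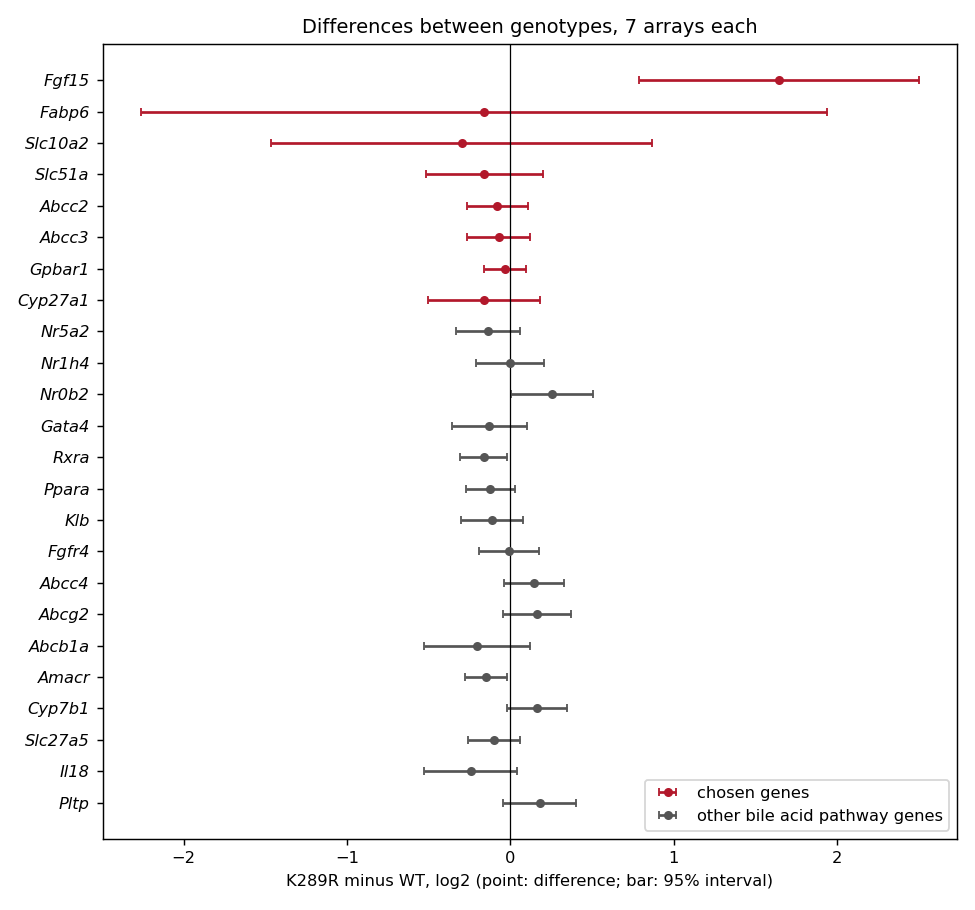
Difference K289R minus WT (x axis, log2) with its 95% interval for the 8 genes (red) and for 16 other genes of the bile acid pathway (grey), 7 arrays per genotype. The interval of Fgf15 runs from 0.79 to 2.50, and those of Fabp6 and Slc10a2 are the widest.

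The wider bile acid pathway was listed as 47 further genes, of which 44 had a probe set of their own and 39 were tested. In limma's test 0 of the 39 were called in either direction, beside 0.0444% of all genes tested, a share at which no call is the usual outcome for a list of this length. Of the 39, 14 were higher and 25 lower in K289R, and the median was −0.028. Over all 18010 genes tested, 8643 were higher and 9367 lower. At an unadjusted p under 0.05 there were 3, namely Rxra, Amacr and Nr0b2, beside 8.48% of all genes tested. The count of calls in the list was also 0 in each of 25 refits with other settings, in which other filters changed how many of its genes were tested.

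Of 12 tested genes for bile acid sensors and their partners, 1, Nr0b2, was higher and 11 lower. Nr1h4, the gene of FXR, averaged 9.08 ± 0.17 in K289R and 9.08 ± 0.24 in WT (SD, n = 7 each), a difference of −0.0023 (SE 0.0997, limma adjusted p = 0.996). It was highest on WT replicate 1, at 9.51, where Fgf15 was low, and next on K289R replicate 2, at 9.25, where Fgf15 was highest. Nr5a2, the gene of LRH-1 itself, differed by −0.14 (SE 0.092, adjusted p = 0.685). Rxra, the gene of the partner receptor of FXR, differed by −0.16 (SE 0.068, adjusted p = 0.520), and the lipid sensor gene Ppara by −0.12 (SE 0.070, adjusted p = 0.639).

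Of 8 other intestinal targets of FXR, all tested, 5 were higher and 3 lower, with 0 called, beside 0.0444% of all genes tested. Nr0b2 is counted both here and among the sensors. Nr0b2, whose product SHP is a corepressor induced by FXR, was at 7.84 ± 0.20 in K289R and 7.58 ± 0.30 in WT (SD, n = 7 each), a difference of 0.25 (SE 0.119, limma adjusted p = 0.576). Its highest array was K289R replicate 3 (8.13), the lowest K289R array for Fgf15. On K289R replicate 7, with an Fgf15 level of 10.52, Nr0b2 was at 7.53, the lowest of the K289R arrays. Other arrays were high for both genes. K289R replicate 2, the highest for Fgf15 (10.56), had Nr0b2 at 7.99. WT replicate 7 was the highest WT array for Fgf15 (8.63) and for Nr0b2 (8.05). Il18, an epithelial cytokine gene, was at −0.24 (SE 0.135, adjusted p = 0.629) and Pltp, the phospholipid transfer protein gene, at 0.18 (SE 0.105, adjusted p = 0.645). The difference in response between Fgf15 and these genes was not itself tested.

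Of the transporters outside the 9 genes, 6 of 9 were tested, 3 higher and 3 lower. Abcg2, an apical efflux pump, differed by 0.16 (SE 0.099, limma adjusted p = 0.658), Abcc4, a pump of organic anions, by 0.15 (SE 0.087, adjusted p = 0.650), and Abcb1a, the P-glycoprotein gene, by −0.20 (SE 0.154, adjusted p = 0.716). Without WT replicate 1, Abcg2 was at 0.25 and Abcb1a at −0.087. Among 12 tested genes of bile acid synthesis and conjugation, 6 were higher and 6 lower. Amacr, an enzyme of side chain shortening, differed by −0.15 (SE 0.060, adjusted p = 0.491), Cyp7b1, of the alternative route, by 0.16 (SE 0.087, adjusted p = 0.615) and Slc27a5, a bile acid CoA ligase, by −0.10 (SE 0.074, adjusted p = 0.715). Cyp7a1, the rate-limiting enzyme of the liver, lay between 5.25 and 5.64 on all arrays, below the limit for dim genes. The FGF15 receptor genes Klb and Fgfr4 differed by −0.11 (SE 0.090, adjusted p = 0.733) and −0.0082 (SE 0.087, adjusted p = 0.986).

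The genes whose levels were most like Fgf15 over the 14 arrays were Fstl4 (Pearson's r = 0.859), Gsdmc3 (0.832), 4933439C10Rik (0.824), Mtss2 (0.824) and Scgb3a1 (0.816). Gsdmc3, a gasdermin gene, was at 10.45 on K289R replicate 7 and at 8.01 on WT replicate 3. Over the 10 arrays low for Fabp6, r with Fgf15 was 0.784 for Gsdmc3, and for the other 4 genes it ran from 0.601 for 4933439C10Rik to 0.722 for Fstl4. As Fgf15 differed in mean between the genotypes, part of each r is the separation of the genotypes, and r is a measure of likeness here, with no test.

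The genes most like Fabp6 were Rnf152 (r = 0.918), Trpm6 (0.913), Ddah1 (0.903), ccdc198 (0.897) and Suox (0.893), over the same 14 arrays. Trpm6, a magnesium channel gene, was at 9.45 on WT replicate 1 and at 8.40 on K289R replicate 2, and Suox, the sulfite oxidase gene, at 11.67 and 10.63 on these arrays. The Fabp6 levels fall into 4 high and 10 low arrays, and these r values describe that separation. Over the 10 low arrays r was 0.011 for Rnf152, 0.193 for Trpm6, −0.037 for Ddah1, 0.601 for ccdc198 and 0.389 for Suox.

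The tissue label was set beside marker genes of other cells. The 8 enterocyte genes were at 12.45 or above on every array, the lowest value being that of Lct, the lactase gene, on WT replicate 1, with list means of 13.30 to 13.44 in K289R and 13.25 to 13.44 in WT. The title of the series has the word hepatic, while the labels name jejunum. Of 8 hepatocyte markers 6 were tested, 1 higher and 5 lower, and 0 called, beside 0.0444% of all genes tested. Their list means were 7.10 to 7.70 in K289R and 7.36 to 7.57 in WT. The higher gene, Cyp2e1, ran from 8.07 to 9.83 in K289R and from 7.99 to 8.80 in WT. Of the lower genes, Serpinc1, the antithrombin gene, was at 7.24 ± 0.17 in K289R and 7.67 ± 0.20 in WT (SD, n = 7 each; difference −0.43, SE 0.090, limma adjusted p = 0.124). Alb, the albumin gene, ran from 6.56 to 7.35 in K289R and from 6.82 to 7.17 in WT. Means in K289R exceeded those in WT for 6 of 6 smooth muscle genes (median 0.25) and for 5 of 5 tested genes of T and B cells (median 0.26), and 0 of either list were called. At an unadjusted p under 0.05 there were 5 smooth muscle genes and 0 of T and B cells, beside 8.48% of all genes tested. Their list means ran from 10.86 to 11.33 in K289R and 10.81 to 11.02 in WT for smooth muscle, and from 8.22 to 9.32 in K289R and 7.91 to 9.19 in WT for T and B cells. Their part in the Fgf15 difference was not tested. Of 7 pancreatic acinar markers, 5 were tested, 2 higher and 3 lower in K289R, with list means of 7.404 to 7.69 in K289R and 7.29 to 7.61 in WT. Sycn, the gene of the acinar granule protein syncollin, was at 8.34 ± 0.17 in K289R and 7.86 ± 0.29 in WT (SD, n = 7 each; difference 0.48, SE 0.112, limma adjusted p = 0.156), while the acinar gene Cpb1 was below 6.25 on every array. With the acinar mean as a covariate the Fgf15 difference was 1.20 (SE 0.368). That mean includes Sycn, itself higher in K289R, so this value does not measure a share of acinar RNA, which was not tested.

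**Figure D4:**
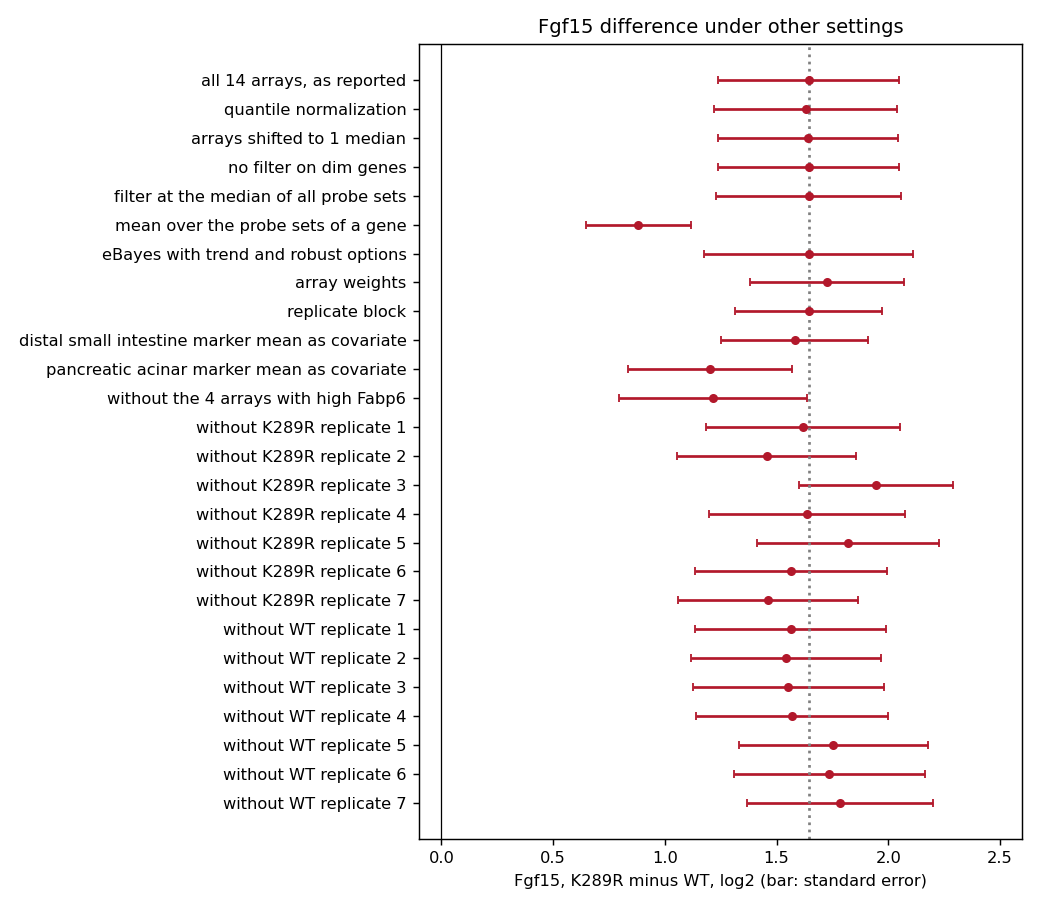
Fgf15 difference K289R minus WT (x axis, log2; bar, SE) with all 14 arrays and under 25 other settings, with the dotted line at 1.64. It lies between 1.46 and 1.94 whichever single array is left out, and at 0.88 with the mean over both probe sets. The dimmer probe set alone, at 0.12, is not drawn.

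No single array moved the Fgf15 difference by over 1.5 times. Leaving out 1 of the 14 arrays in turn gave values from 1.46, without K289R replicate 2, to 1.94, without K289R replicate 3. The sign of the Fabp6 difference, by contrast, turned with single arrays, from −0.70 without K289R replicate 2 to 0.66 without WT replicate 1, and that of Slc10a2 ran from −0.52 to 0.29 without the same arrays.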

How the data were processed

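The authors deposited linear intensities of 41345 probe sets for each of 14 arrays. The submitters' processing notes name Affymetrix Expression Console, without its settings, so the background correction and normalization are unknown. Array medians lay within 168 to 174, and the values were used without another normalization. Background left in the signal would compress the differences of dim genes.

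The intensities were taken to log2. In the platform annotation, with symbols updated by Entrez identifier, 23521 probe sets had 1 symbol. Another 1814 had several symbols and 16010 had none here, and neither kind was used. Each gene was represented by its brightest probe set on average. Dim genes, under the 25th percentile of probe set means (log2 6.25), were dropped, leaving 18010. K289R was compared with WT with lmFit and eBayes of limma 3.58.1 (R 4.3.3), 2-sided and with no covariate, and p-values were adjusted by Benjamini-Hochberg across the 18010. The steps were tested on simulated data. The labels call the replicates biological.

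The genes, lists, tests and alternatives were chosen with earlier results of these data known. Named are the listed genes, Nr5a2, Nr1h4, Nr0b2 and Gata4, up to 3 genes per pathway list by smallest p, marker genes, and the 5 genes most like Fgf15 and Fabp6. No arrays were duplicates, the smallest root mean square difference being 0.24. Alternatives covered normalization, filter, probe set choice, variance model, weights, a replicate block, covariates and arrays left out.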

Additional observations from a re-analysis of the deposited data

Results flagged for a closer look

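In each genotype the array farthest from the rest was compared with Dixon's critical value for 7 samples, over 82 groups of values. About 5% of groups pass it by chance where groups are independent and not chosen for their values. Here 13 passed, but Slc10a2 and Slc51a were listed with their levels known and 5 other genes were picked for likeness to Fabp6 or Fgf15, so the number is a description. WT replicate 1 stood apart from the other WT arrays in 9 of them. It was at 10.52 for Slc10a2, against 6.14 to 7.20 on the other WT arrays, at 12.29 for Slc51a, against 11.17 to 11.51, and at 10.85 for Abcg2, against 10.17 to 10.41. It was also high for 4 of the genes most like Fabp6, namely Rnf152 (10.23), Trpm6 (9.45), Ddah1 (11.16) and Suox (11.67). It was low for Fabp1, at 11.36 against 12.36 to 13.08, and for 4933439C10Rik, at 7.67 against 7.78 to 7.83. The other values that passed were lows: Klb at 7.02 on WT replicate 3, Amacr at 9.26 on K289R replicate 7, Pltp at 8.26 on K289R replicate 1 and Amn at 9.74 on K289R replicate 3.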

How the results depend on the processing

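Results were recomputed under 25 alternatives, or 24 for Slc10a2, Gpbar1, Klb and Slc27a5, which gave no value under the filter at the median. The Fgf15 difference was positive in all of them, between 0.88 (mean over both probe sets) and 1.94, and it was 1.64 (SE 0.329) with a replicate block. The dimmer Fgf15 probe set alone was not among the alternatives, and it gave 0.12 (95% interval −0.10 to 0.34). The Slc51a, Abcc2 and Cyp27a1 differences were negative in all of them, and Slc51a was nearest to 0 without WT replicate 1 (−0.021). The sign of Fabp6 turned in 7 and that of Slc10a2 in 2 of 24, each among them without WT replicate 1, and that of Slc10a2 also without the 4 arrays high for Fabp6 (0.099). Abcc3 and Gpbar1 each turned sign in 1 alternative, to 0.028 and 0.00051. The 0 calls among other bile acid pathway genes held throughout. The 8 genes called over the whole table were 0 with a replicate block, 14 with array weights and 5 without the 4 arrays high for Fabp6. With 1 array left out they were 4 to 14: 4 without K289R replicate 4, WT replicate 3 or WT replicate 4, 5 without K289R replicate 7 and 14 without K289R replicate 5. Same-numbered arrays of the genotypes did not deviate together (r from −0.15 to 0.17 over genes, and 0 correlated best with its own number). No pairing by number was thus seen, though this check cannot show that there is none. The cause of these shifts was not tested. Fabp6 and Slc10a2 lie near the limit for dim genes on 10 arrays, where their order carries little weight.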
